A study of Mus musculus with 16 samples.

Results

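The genes described here are 9 genes that mark tuft cells of the intestinal epithelium: Dclk1, Trpm5, Avil, Pou2f3, Il25, Alox5ap, Sh2d6, Gnat3 and Siglecf. They were taken by symbol through their Ensembl identifiers, and all 9 were found among the 55359 genes of the count table. RNA of the duodenum and ileum was sequenced from 8 adult male mice of the C57BL/6N background on standard diet, 18 weeks after tamoxifen, which gave 16 libraries. The mutants were 4 mice of the genotype Neurog3f/f; Villin-CreERT2 (NFVCT27, NFVCT38, NFVCT153 and NFVCT190), and the controls were 4 Neurog3f/f mice (NF17, NF29, NF32 and NF152). Both genotypes carried the floxed Neurog3 alleles, and each mouse gave 1 library of each tissue. The Villin promoter drives the tamoxifen-activated Cre in the intestinal epithelium, stem cells included. Controls lacked the transgene, so an effect of Cre cannot be told apart from that of Neurog3 loss. The time after tamoxifen is stated for the mutants and the controls as one, and the layers of the gut wall that were taken are not stated.

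Tuft cells are rare chemosensory cells of the gut epithelium. They detect luminal metabolites with a taste-like signalling chain that opens the cation channel TRPM5, and they release interleukin 25 and cysteinyl leukotrienes, which act on type 2 innate lymphoid cells. Interleukin 13 from those lymphoid cells then acts on epithelial progenitors and raises the numbers of tuft and goblet cells. Tuft cells depend on the transcription factor POU2F3, whereas enteroendocrine cells, the hormone-releasing cells of the same epithelium, depend on Neurog3. The comparison of genotypes here asks what the tuft cell genes did in mice whose gut epithelium carried the Neurog3 deletion.

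POU2F3 is a POU-domain factor that binds the octamer ATGCAAAT, so promoters were read for it. RefSeq promoter windows (build GRCm38.p6, 250 bases before to 50 after the annotated start) were matched for 6 of the 9 genes, in 7 windows, because Dclk1 has 2 starts. Pou2f3, Il25 and Alox5ap were not matched. A set of 4 windows is printed 5′ to 3′ on the gene's strand. Capitals mark ATGCAAAT or its variant ANGCAAAT, which includes it. Trpm5 (chr7:143094593-143094892, minus strand) and Avil (chr10:127000459-127000758, plus strand) are shown because their ileal difference was called whichever library was left out. Sh2d7 (chr9:54533873-54534172, plus strand) is shown because it varied most like the tuft cell genes between libraries, and Sucnr1 (chr3:60081619-60081918, plus strand) because it holds the full octamer and was higher in the ileum in both genotypes.
Trpm5 promoter: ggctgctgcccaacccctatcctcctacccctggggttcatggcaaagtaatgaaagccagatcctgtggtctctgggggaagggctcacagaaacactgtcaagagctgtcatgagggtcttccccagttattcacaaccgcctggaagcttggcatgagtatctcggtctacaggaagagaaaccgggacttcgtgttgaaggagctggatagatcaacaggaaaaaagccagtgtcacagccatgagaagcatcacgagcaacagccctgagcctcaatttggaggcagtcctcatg
Avil promoter: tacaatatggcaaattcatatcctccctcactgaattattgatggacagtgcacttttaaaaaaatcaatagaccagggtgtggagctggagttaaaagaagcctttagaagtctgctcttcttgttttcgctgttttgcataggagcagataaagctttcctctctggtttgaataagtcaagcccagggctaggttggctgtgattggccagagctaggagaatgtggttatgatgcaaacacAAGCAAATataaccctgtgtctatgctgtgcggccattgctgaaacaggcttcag
Sh2d7 promoter: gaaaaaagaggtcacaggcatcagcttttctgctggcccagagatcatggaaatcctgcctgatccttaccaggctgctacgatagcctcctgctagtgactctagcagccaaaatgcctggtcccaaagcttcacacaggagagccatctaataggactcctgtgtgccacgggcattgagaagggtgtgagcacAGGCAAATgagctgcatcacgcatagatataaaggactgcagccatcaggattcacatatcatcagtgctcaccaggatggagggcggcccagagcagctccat
Sucnr1 promoter: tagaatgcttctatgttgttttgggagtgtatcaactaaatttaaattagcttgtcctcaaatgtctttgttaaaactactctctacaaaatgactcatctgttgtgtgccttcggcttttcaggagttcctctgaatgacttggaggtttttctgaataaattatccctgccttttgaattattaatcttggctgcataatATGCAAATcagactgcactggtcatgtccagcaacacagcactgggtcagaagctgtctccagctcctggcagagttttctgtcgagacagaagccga

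ATGCAAAT was in 0 of the 7 member windows on either strand, and in 6 of 57 windows of 46 other tuft-associated genes. Over 32851 promoters of the same length, 1.74% held it. ANGCAAAT was in 1 of the 7 member windows, that of Avil, where AAGCAAAT spans bases -5 to 3 with the start as base 1 and no base 0. It was in 8 of the 57 other windows, against 4.08% of all promoters. In Sh2d7 the match AGGCAAAT lies at -54 to -47 and in Sucnr1 ATGCAAAT lies at -48 to -41. ATGCNAAT was in 0 of 7 member windows, 6 of 57 other windows and 3.15% of all promoters. TATAAA was in 0 of 7, 3 of 57 and 13.6%. These are matches of letters and say nothing of binding.

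Total counts ran from 8213889 to 35076714 per library. Neurog3, which the mutation targets, was at 0 counts in each of the 8 libraries of mutants, against 8 to 27 counts in control ileum and 12 to 37 counts in control duodenum. The summed level of 10 enteroendocrine genes was low but above 0 in each mutant library, at 5.41 to 7.26 CPM in mutant ileum, against 201 to 290 CPM in control ileum, and at 5.04 to 18.9 CPM in mutant duodenum, against 358 to 533 CPM in control duodenum. Control ileum NF152 stood apart in B cell genes, with a summed level of 125 CPM, against 8.32 to 13.8 CPM in the other 3 control ilea. Without it, 5 of the 8 members tested were called in the ileum, with a median log2 fold change of 1.01. Levels are given as CPM, which are counts relative to library size after TMM scaling over all 16 libraries. Differences between groups are log2 fold changes from edgeR's quasi-likelihood test with their standard error (SE), and calls were made where the adjusted p (Benjamini-Hochberg, all genes tested) was under 0.05. Libraries of mice of 1 genotype are the replicates, and values are listed for mutants in the order NFVCT27, NFVCT38, NFVCT153, NFVCT190 and for controls in the order NF17, NF29, NF32, NF152. These are whole-tissue samples, in which fewer cells of a type and less RNA per cell cannot be told apart.

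In the ileum the tuft cell genes were higher in mutants. Of the 8 members that passed the filter on low counts, 6 rose and 0 fell: Dclk1, Trpm5, Avil, Pou2f3, Sh2d6 and Siglecf, by 1.62-fold to 2.16-fold. Over all 14951 genes tested, 1.77% were called higher. In the same 6 genes all 4 mutants lay above all 4 controls, against 5.79% of all genes. The other 2, Alox5ap and Gnat3, had log2 fold changes above 0 and were not called. The median of the 8 was 0.95 on the log2 scale, beside -0.0061 over all genes tested.

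Pou2f3, the transcription factor on which tuft cells depend, had 3.51, 2.96, 2.36 and 2.52 CPM in mutant ileum, against 1.08, 1.07, 1.09 and 1.87 CPM in control ileum. The groups did not overlap, and control NF152 lay nearest to the mutants. The log2 fold change was 1.09 (SE 0.28, adjusted p = 0.0479). This gene is sparse, with 145 counts over the mutant ileal libraries and 98 over the control ones.

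In the taste-like chain, Trpm5 is the cation channel that opens downstream of the receptors. It had 25.5, 31.0, 26.1 and 18.1 CPM in mutant ileum, against 11.1, 14.3, 14.2 and 12.2 CPM in control ileum. Every mutant was above the highest control, and NFVCT190 was the lowest mutant. The log2 fold change was 0.94 (SE 0.16, adjusted p = 0.00624), or 1.92-fold.

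Gnat3 encodes gustducin, the G protein alpha subunit of taste receptor signalling. It had 2.93, 3.14, 1.01 and 2.196 CPM in mutant ileum, against 1.72, 0.625, 0.999 and 1.40 CPM in control ileum. Mutant NFVCT153 lay among the controls, so the groups overlapped. The log2 fold change was 0.89 (SE 0.36, adjusted p = 0.237), with an interval of 2 SE from 0.16 to 1.61.

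Among kinases, adaptors and cytoskeletal proteins, Avil encodes advillin, which binds actin and is found in the apical bundle of tuft cells. It had 25.3, 21.6, 21.2 and 15.96 CPM in mutant ileum, against 10.4, 6.52, 12.2 and 9.14 CPM in control ileum. All mutants were above all controls, and its log2 fold change was the largest of the 8, at 1.11 (SE 0.19, adjusted p = 0.00541). Dclk1, a microtubule-associated kinase used as the standard tuft cell marker, had 32.3, 41.8, 36.4 and 30.0 CPM in mutant ileum, against 20.04, 15.99, 20.6 and 28.5 CPM in control ileum. Mutant NFVCT190 and control NF152 lay close to each other, and the log2 fold change was 0.70 (SE 0.16, adjusted p = 0.0337). Sh2d6, an SH2-domain adaptor, had 5.03, 5.60, 3.93 and 3.86 CPM in mutant ileum, against 2.58, 2.14, 1.54 and 2.85 CPM in control ileum. Its groups did not overlap either, and the log2 fold change stood at 0.96 (SE 0.23, adjusted p = 0.0379).

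Siglecf, a sialic acid-binding surface receptor that eosinophils and some macrophages also carry, had 8.43, 14.96, 7.64 and 6.86 CPM in mutant ileum, against 4.91, 3.13, 4.45 and 5.53 CPM in control ileum. NFVCT38 was the highest, and the other 3 mutants were also above all controls. The log2 fold change was 1.04 (SE 0.25, adjusted p = 0.0385). Of 8 eosinophil markers, Ear1 and Ear6 were at 0 counts in all 16 libraries, and the summed level of the list ran from 4.12 to 9.62 CPM in mutant ileum and from 3.57 to 6.89 CPM in control ileum. Of the 3 tested by edgeR in the ileum, 0 were called and 2 had an unadjusted p under 0.05, against 2356 of all 14951 genes tested. The median log2 fold change of these 3 eosinophil markers was 0.79, with Alox15 at 1.02 and Ccr3 at 0.79, whereas Prg2 was not above 0. Their part in the Siglecf result was not tested.

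The effector genes gave no call. Alox5ap, which presents arachidonic acid to 5-lipoxygenase and which leukocytes also express, had 4.56, 4.09, 5.62 and 3.86 CPM in mutant ileum, against 2.94, 3.48, 2.91 and 4.00 CPM in control ileum. NFVCT190 lay below NF152, and the log2 fold change was 0.41 (SE 0.21, adjusted p = 0.376, interval of 2 SE from -0.012 to 0.83). Il25, the cytokine that acts on lymphoid cells, fell under the filter: mutant ileum held 2, 3, 0 and 0 counts, against 3, 1, 0 and 0 counts in control ileum. An exact permutation test of the mean CPM gave p = 0.543, where 0.0286 is the smallest p that 4 against 4 allows. At this depth 3 counts over a group amount to 0.0596 CPM in mutant ileum and 0.0459 CPM in control ileum. A change of Il25 as small as those of the called members could not be read from so few counts.

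**Figure D1:**
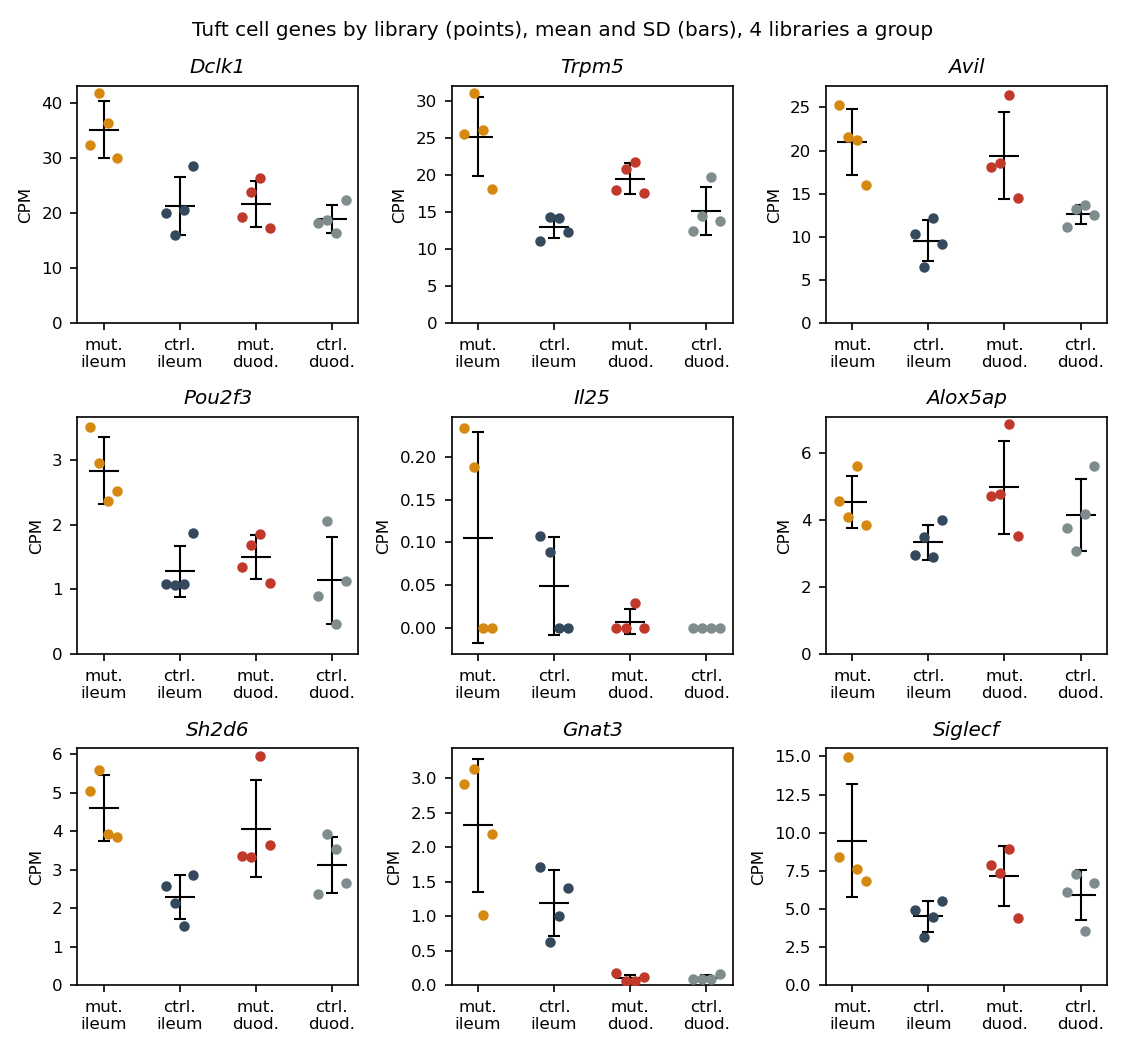
CPM of the 9 tuft cell genes in each library (points), with the group mean and SD (bars, n = 4), for mutant and control ileum and mutant and control duodenum. In the ileum all 4 mutants lie above all 4 controls for Dclk1, Trpm5, Avil, Pou2f3, Sh2d6 and Siglecf, whereas in the duodenum this holds for Avil alone; Il25 is at 0 to 3 counts per library.

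In the duodenum no tuft cell gene was called. Of 7 members tested by edgeR, 0 were called, against 0.394% of 14703 genes tested. At an unadjusted p under 0.05 there were 2, Trpm5 and Avil, against 1280 of all 14703 genes tested. DESeq2 and limma-voom also called 0. All 7 had log2 fold changes above 0, with a median of 0.37, beside -0.00015 over all genes tested, and the largest adjusted p was 0.883. Of 10 general epithelial genes, 8 were also above 0, with a median of 0.20. With libraries scaled to epithelial genes, 6 of the 7 members were above 0 and their median was 0.14. A p that misses the threshold does not show that the levels were alike.

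Avil had 18.1, 18.6, 26.5 and 14.5 CPM in mutant duodenum, against 11.1, 13.2, 13.6 and 12.5 CPM in control duodenum. It was the 1 member whose groups did not overlap, with all mutants above all controls, as in 2.77% of all genes. Its log2 fold change was 0.62 (SE 0.18, adjusted p = 0.217, interval of 2 SE from 0.27 to 0.98). Trpm5 had 17.9, 20.8, 21.8 and 17.5 CPM in mutant duodenum, against 12.5, 14.4, 19.8 and 13.8 CPM in control duodenum. Control NF32 lay among the mutants, and the log2 fold change was 0.37 (SE 0.16, adjusted p = 0.53). Dclk1 had 19.3, 23.9, 26.3 and 17.2 CPM in mutant duodenum, against 18.2, 18.8, 16.3 and 22.4 CPM in control duodenum. The groups overlapped widely, and its log2 fold change was 0.19 (SE 0.16, adjusted p = 0.845), or -0.052 when libraries were scaled to epithelial genes.

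Pou2f3 had 1.34, 1.69, 1.85 and 1.103 CPM in mutant duodenum, against 0.897, 2.06, 0.464 and 1.13 CPM in control duodenum, so its highest and its lowest library were both controls. Its log2 fold change was 0.43 with an interval of 2 SE from -0.36 to 1.22. Its sums were 119 counts over mutant duodenum and 59 over control duodenum. Sh2d6 ranged from 3.32 to 5.94 CPM in mutant duodenum and from 2.37 to 3.93 CPM in control duodenum. Siglecf ranged from 4.41 to 8.95 CPM in mutant duodenum and from 3.53 to 7.29 CPM in control duodenum, and Alox5ap from 3.53 to 6.87 CPM in mutant duodenum and from 3.08 to 5.61 CPM in control duodenum. Both Il25 and Gnat3 fell under the filter. Il25 had 1 count over the mutants and 0 over the controls, where 3 counts would amount to 0.0534 CPM. Gnat3 had 6 counts over the mutants and 6 over the controls.

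The difference between tissues in the size of the genotype effect was tested over all 16 libraries. Of 8 members tested by edgeR, 0 were called, against 0.0441% of 15882 genes. All 8 estimates (ileum minus duodenum) were above 0, from 0.16 for Alox5ap to 1.30 for Gnat3, with a median of 0.58, beside 0.0081 over all genes tested. At an unadjusted p under 0.05 there were 2 members, against 700 of all 15882 genes tested. These were Trpm5 (0.59, SE 0.23) and Dclk1 (0.51, SE 0.24), each with an adjusted p of 1. DESeq2, limma-voom and a fit with the animal as a block called 0 as well. The ileal calls are therefore not shown to be larger than the duodenal differences.

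**Figure D2:**
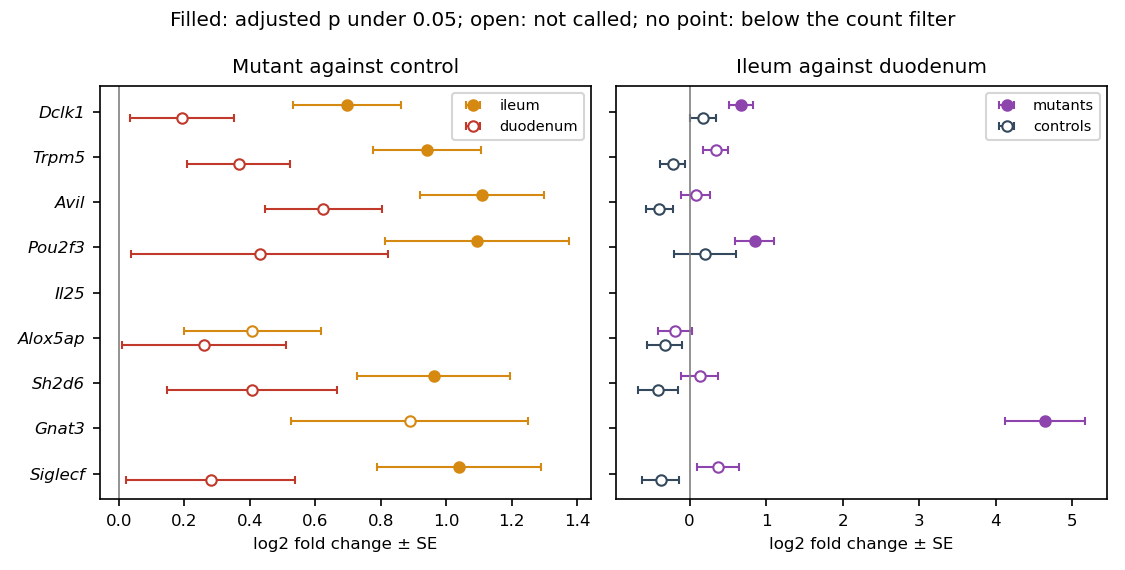
Log2 fold change ± SE of each tuft cell gene, for mutant against control in the ileum and duodenum (left) and for ileum against duodenum in mutants and controls (right). Filled points have an adjusted p under 0.05, and a gene with no point was below the count filter. In the left panel 6 ileal points and 0 duodenal points are filled, and in the right panel the mutant points of Gnat3, Dclk1 and Pou2f3.

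Between tissues, Gnat3 stood apart from the other members. Mutant ileum held 25, 50, 9 and 41 counts of it, against 2, 1, 2 and 1 counts in mutant duodenum. Control ileum held 48, 7, 11 and 33 counts, against 1, 1, 1 and 3 counts in control duodenum. Every ileal library was above every duodenal library in both genotypes. Scaled to library size, the summed counts were 29.1-fold higher in mutant ileum (95% exact interval 13.0 to 80.8, counting error only) and 11.7-fold higher in control ileum (5.19 to 32.7). In mutants the gene was called (log2 fold change 4.64, SE 0.52, adjusted p = 7.78e-05). In controls it was below the filter on low counts, and a fit with no filter called it (3.36, SE 0.60, adjusted p = 3.29e-07).

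In mutants 3 of 8 members tested rose in the ileum relative to the duodenum and 0 fell, against 15.2% of 14950 genes called higher. Beside Gnat3 these were Dclk1, at 35.1 ± 5.19 CPM in mutant ileum and 21.7 ± 4.17 CPM in mutant duodenum (SD, n = 4 each; log2 fold change 0.67, SE 0.16, adjusted p = 0.00768), and Pou2f3, at 2.84 ± 0.52 CPM in mutant ileum and 1.498 ± 0.34 CPM in mutant duodenum (0.85, SE 0.25, adjusted p = 0.0242). In these 3 genes the tissues did not overlap, as in 16.8% of all genes. The calls of Dclk1 and Pou2f3 depended on the setting. Scaled to epithelial genes, Dclk1 was at 0.48 (adjusted p = 0.0804) and Pou2f3 at 0.67 (0.111). With the acinar score as a covariate they were at 0.058 (0.913) and 0.60 (0.506), and with the smooth muscle score at 0.0034 (0.995) and 0.24 (0.83). Both scores separate ileum from duodenum without overlap, so a fit with either cannot tell the tissue from its content of these cells. Pou2f3 was also not called with no filter (adjusted p = 0.0598), whereas Gnat3 was called in each of these fits, at 4.47 to 6.32. Other tissue moved with this comparison: in mutants all 12 pancreatic acinar genes were lower in the ileum, with a median of -5.27, and all 8 smooth muscle genes were higher, with a median of 1.38. Acinar genes held 0.0352% to 0.482% of the counts in mutant ileum, against 1.73% to 18.3% in mutant duodenum, and 0.108% to 0.811% in control ileum, against 6.45% to 14.3% in control duodenum. In controls 0 of 7 members tested by edgeR were called, against 35.9% of 14976 genes. At an unadjusted p under 0.05 there was 1, Avil, against 6828 of all 14976 genes tested. Avil had 9.55 ± 2.37 CPM in control ileum and 12.6 ± 1.11 CPM in control duodenum (log2 fold change -0.39, SE 0.18, adjusted p = 0.097). DESeq2 and limma-voom called 0 members. Scaled to epithelial genes, 5 members were called lower in control ileum, Trpm5 (-0.68), Avil (-0.86), Alox5ap (-0.79), Sh2d6 (-0.88) and Siglecf (-0.85), at adjusted p of 0.00209 to 0.0212. With that scaling 7353 of all 14976 genes tested were called lower, and the median over all genes moved to -0.45. Dclk1 had 21.3 ± 5.24 CPM in control ileum and 18.9 ± 2.54 CPM in control duodenum, and the log2 fold change was 0.18 (SE 0.17, adjusted p = 0.439). Scaling to epithelial genes turned it to -0.28.

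Levels can be compared between genes only per length, here as CPM per kilobase of exon. Avil was the highest member in each of the 4 groups, at 6.18 ± 1.13 CPM per kilobase in mutant ileum, 2.81 ± 0.70 in control ileum, 5.72 ± 1.49 in mutant duodenum and 3.71 ± 0.33 in control duodenum (SD, n = 4). Il25 was the lowest in each. In mutant ileum the order below Avil was Trpm5, Siglecf, Alox5ap, Sh2d6, Dclk1, Gnat3, Pou2f3 and Il25. Neighbours from Avil to Trpm5, and from Pou2f3 to Il25, were further apart than their summed SDs. From Trpm5 down to Pou2f3 no neighbours were. In control ileum Alox5ap ranked 2 and Trpm5 3, and of the neighbours Pou2f3 and Il25 alone were apart by more than their summed SDs. In both groups of the duodenum Gnat3 ranked below Pou2f3, whereas in both groups of the ileum it ranked above it. By these levels Dclk1, the member with the highest CPM in each group, ranked 6 in mutant ileum and 5 in control ileum. Its exons total 15296 bases, the longest of the 9 members. Exon lengths here join the exons of all annotated transcripts of a gene. Where the transcripts in use are shorter, the level per kilobase is understated.

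Within groups, most pairs of members varied in the same direction. Over the 16 libraries, after removal of group means, 25 of 28 pairs of the 8 members with enough counts had a Pearson r above 0, with a median of 0.36. The range was from -0.26 to 0.77, the highest for Dclk1 with Siglecf. These 16 points come from 8 mice, 2 libraries each, so they are not independent, and each gene of a library shares its scaling. Pairs of other genes were not compared in this way, so these values are not shown to be particular to the members. Libraries of a group also differed in tissue content, as in mutant duodenum, where acinar genes held 1.73% to 18.3% of the counts. The part of tissue content in these correlations was not tested. Of the 14236 genes ranked by likeness to the mean deviation of the 8 members, Sh2d7 came first (r = 0.917, rho = 0.921). The first 10 also held Vdac3 (0.873), Glb1l (0.850), Gstz1 (0.843), Atp2b2 (0.835), Ighj1 (0.834), Qpct (0.825), Strip2 (0.825) and Bmx (0.824). Of 44 other tuft-associated genes ranked, 35 had r above 0 and 7 were among the first 100, with a median r of 0.45, beside 0.038 over all genes ranked. At the other end of the ranking stood Sox9, a transcription factor of crypt cells (r = -0.873), and Inpp5j (-0.811), which are listed among tuft-associated genes as well. Without mouse NFVCT153 the first 10 shared 4 genes with these.

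Of the other tuft-associated genes, listed by role, 8 of 44 tested rose in mutant ileum and 0 fell, against 1.77% of all genes called higher, with a median log2 fold change of 0.21. All mutants lay above all controls in 13 of the 54 listed genes, which include genes under the filter, and below them in 1. Of all genes tested, 5.79% had all mutants above all controls, and the share with all mutants below is not given here. In the duodenum 0 of 43 tested were called by edgeR, where 8 had an unadjusted p under 0.05, against 1280 of all 14703 genes tested. Duodenal Krt18 had a log2 fold change of 0.81 (adjusted p = 0.0927), and was called with DESeq2 (adjusted p = 0.00138), with no filter (0.00799) and without NFVCT190 (0.0395). In the duodenum Cd24a was called with DESeq2 (0.32, adjusted p = 0.0265) and Alox5 with the leukocyte score as a covariate (1.90, adjusted p = 0.0466).

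Among kinases and adaptors, 2 of 13 rose. Sh2d7, an SH2-domain adaptor, had 19.8, 20.8, 17.4 and 13.1 CPM in mutant ileum, against 7.60, 7.24, 8.72 and 9.10 CPM in control ileum (log2 fold change 1.09, SE 0.16, adjusted p = 0.00218). Bmx, a TEC-family tyrosine kinase, had 5.85, 7.55, 4.61 and 5.14 CPM in mutant ileum, against 2.47, 1.34, 1.54 and 3.74 CPM in control ileum (1.27, SE 0.29, adjusted p = 0.0263). In lipid mediator and acetylcholine synthesis 1 of 5 rose, Alox5, the 5-lipoxygenase that starts leukotriene synthesis together with ALOX5AP. It had 11.4, 11.6, 9.78 and 5.68 CPM in mutant ileum, against 4.27, 3.31, 4.45 and 4.25 CPM in control ileum (1.20, SE 0.22, adjusted p = 0.00882). None of Ltc4s, Ptgs1, Hpgds and Pla2g4a was called, at log2 fold changes of 0.11 to 0.29.

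In the surface and cytoskeleton group 4 of 12 rose. Strip2 had 14.6, 16.5, 12.5 and 9.54 CPM in mutant ileum, against 5.09, 4.65, 5.99 and 8.03 CPM in control ileum (1.13, SE 0.21, adjusted p = 0.00846). The others were Cd24a, a glycosylated surface protein (0.63, adjusted p = 0.00919), and the keratins Krt18 (0.57, adjusted p = 0.0325) and Krt23 (0.80, adjusted p = 0.0408), which many epithelial cells express. In the taste and second messenger group 1 of 9 rose, Rgs13, a regulator that shortens G protein signals (0.71, SE 0.17, adjusted p = 0.0394). Plcb2, the phospholipase of the taste chain, had a log2 fold change of 0.071 (adjusted p = 0.911), and Plcg2 -0.078 (adjusted p = 0.812). In the transcription group 0 of 5 were called by edgeR, and 3 had an unadjusted p under 0.05, against 2356 of all 14951 genes tested. Of the coactivators of POU2F3, Colca2 (also named Pou2af3) had 0.50 (adjusted p = 0.293) and 1810046K07Rik (also named Pou2af2) had 0.22 (adjusted p = 0.852).

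Sucnr1, the succinate receptor of tuft cells, was higher in the ileum than in the duodenum in both genotypes. It had 2.81, 4.15, 2.81 and 1.5 CPM in mutant ileum, against 0.168, 0.292, 0.203 and 0 CPM in mutant duodenum (log2 fold change 3.83, adjusted p = 0.000187). Control ileum had 1.61, 1.07, 1.45 and 1.83 CPM of Sucnr1, against 0.326, 0.0935, 0.0928 and 0.216 CPM in control duodenum (2.95, adjusted p = 0.000187). Ly6g6d, a surface protein gene, ran the other way, with a log2 fold change of ileum over duodenum of -2.93 in mutants (adjusted p = 8.67e-05) and -2.90 in controls (adjusted p = 0.00125). Rgs13 was higher in the ileum of mutants (1.34, adjusted p = 0.000193). With the acinar and smooth muscle scores as covariates Sucnr1 was not called, at 2.60 and 1.40 in mutants (adjusted p = 0.0772 and 0.577) and at 2.97 and 2.62 in controls (0.208 and 0.103). Rgs13 was not called in these fits either (1.12 and 1.08, adjusted p = 0.078 and 0.112). With the acinar score Ly6g6d was at -1.23 in controls (adjusted p = 0.804). In each genotype both scores separate the tissues without overlap, so these fits cannot tell the tissue from its content of such cells.

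**Figure D3:**
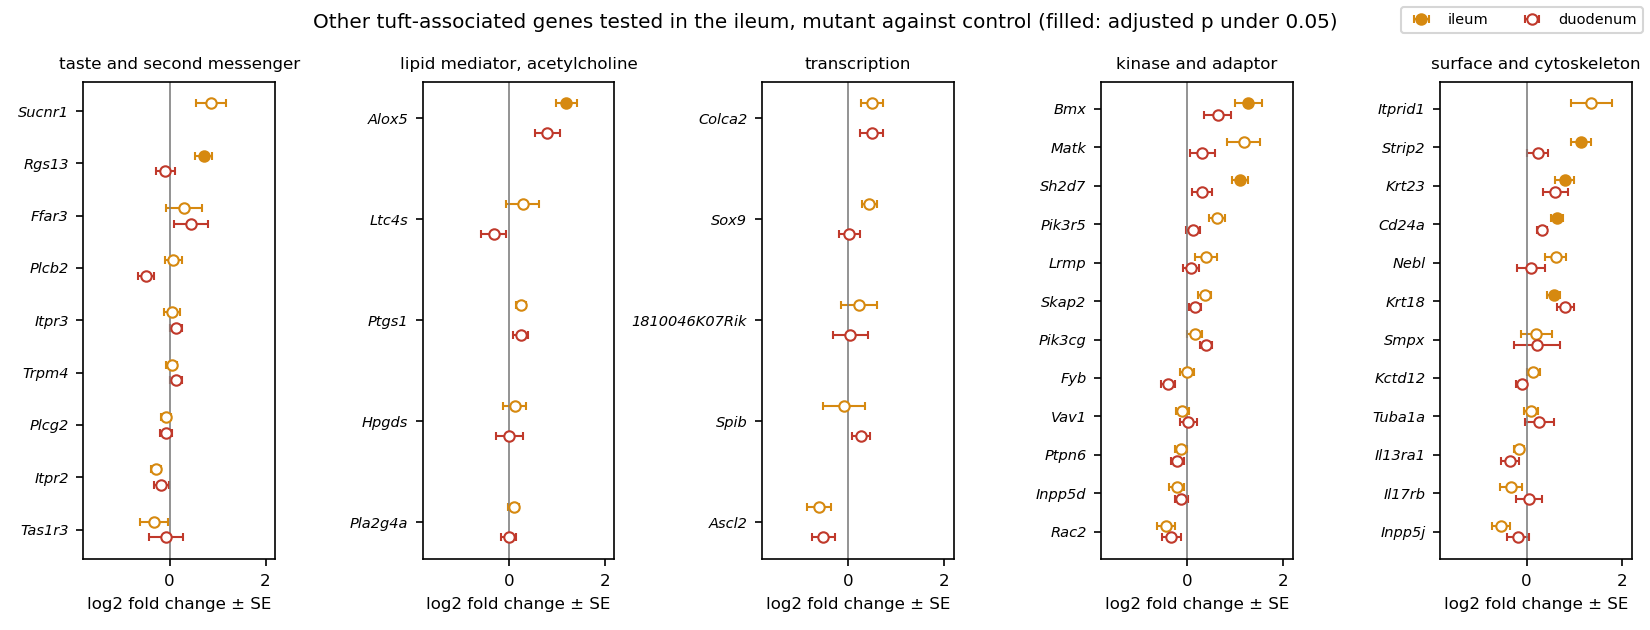
Log2 fold change ± SE of mutant against control in the ileum and duodenum for other tuft-associated genes tested in the ileum, in 5 panels by role, with 1 gene not shown. Filled points have an adjusted p under 0.05: 8 ileal points (Rgs13, Alox5, Bmx, Sh2d7, Strip2, Krt23, Cd24a and Krt18) and 0 duodenal points.

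The type 2 circuit is the one through which tuft cells act on goblet cells. Of its genes, 2 of 6 tested rose in mutant ileum, against 1.77% of all genes called higher. Both are goblet cell products: Retnlb, for which the log2 fold change was 4.75 (SE 0.54, adjusted p = 0.00763), and Clca1 (0.92, SE 0.16, adjusted p = 0.00645). Retnlb had 115, 83.9, 67.0 and 33.3 CPM in mutant ileum, against 3.94, 2.86, 2.91 and 1.19 CPM in control ileum. With the smooth muscle score as a covariate neither was called, at 3.46 for Retnlb (adjusted p = 0.559) and 0.43 for Clca1 (0.765), nor with the leukocyte score (4.52 and 0.89, adjusted p = 0.20 and 0.258). Gata3, which was under the filter on low counts, was the 1 listed gene with all mutants below all controls. The cytokines were not readable at this depth, with Il13 at 1 count over mutant ileum and 1 over control ileum and Il9 at 0 counts in all 16 libraries. A link of Retnlb and Clca1 to the tuft cell genes was not tested.

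Other cell types moved with the ileal groups as well. The score of 8 smooth muscle genes, the mean of log2(CPM + 1), was 8.74 ± 0.20 in mutant ileum and 8.00 ± 0.22 in control ileum (SD, n = 4 each; exact two-sided permutation p = 0.0286, adjusted over 22 scores 0.0899). All mutants were above all controls, 6 of its 8 genes rose, and its summed level ran from 4224 to 5888 CPM in mutant ileum and from 2444 to 3564 CPM in control ileum. The leukocyte score of 6 genes was 4.42 ± 0.19 in mutant ileum and 5.05 ± 0.32 in control ileum (exact permutation p = 0.0286, adjusted 0.0899), with 2 of the 6 genes called lower and summed levels of 135 to 177 CPM in mutant ileum and 196 to 341 CPM in control ileum, where NF152 was the highest and the other 3 were at most at 227 CPM. The score of 10 general epithelial genes was 8.92 ± 0.14 in mutant ileum and 8.88 ± 0.14 in control ileum (exact permutation p = 0.686), and 0 of the 10 were called by edgeR or had an unadjusted p under 0.05. In the duodenum the leukocyte and macrophage scores were also lower in mutants (exact permutation p = 0.0286 for each, adjusted 0.0899), at 4.73 and 4.74 in mutants and at 5.12 and 5.20 in controls. The epithelial score there was 8.71 in mutants and 8.50 in controls (exact permutation p = 0.0857, adjusted 0.171).

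With libraries scaled to epithelial genes, the ileal log2 fold changes were 0.97 for Trpm5 and 1.12 for Avil, both called (adjusted p = 0.00841 and 0.00409), and the other 4 lost their call at about the reported size, with Dclk1 at 0.71, Pou2f3 at 1.098, Sh2d6 at 0.99 and Siglecf at 1.07 (adjusted p from 0.0554 to 0.0975). With the smooth muscle score as a covariate 0 members were called. Their log2 fold changes then ran from 0.41 to 1.84, at adjusted p of 0.50 to 0.841. With the leukocyte score as a covariate 0 were called either, at log2 fold changes of 0.60 to 1.91. Of the 8 other tuft-associated genes, 0 were called with the smooth muscle score, at 0.33 to 1.79, and Strip2 and Krt23 alone with the leukocyte score. Rgs13 and Krt23 also lost their call with limma-voom, scaled to epithelial genes and with the acinar score (adjusted p from 0.0572 to 0.101), and Bmx and Krt18 with the acinar score (0.063 and 0.0506). The smooth muscle and leukocyte scores each separate the ileal genotypes without overlap. A fit with either therefore cannot tell a shift of cell types from the genotype. The acinar scores of the ileal genotypes overlapped (exact permutation p = 0.429).

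**Figure D4:**
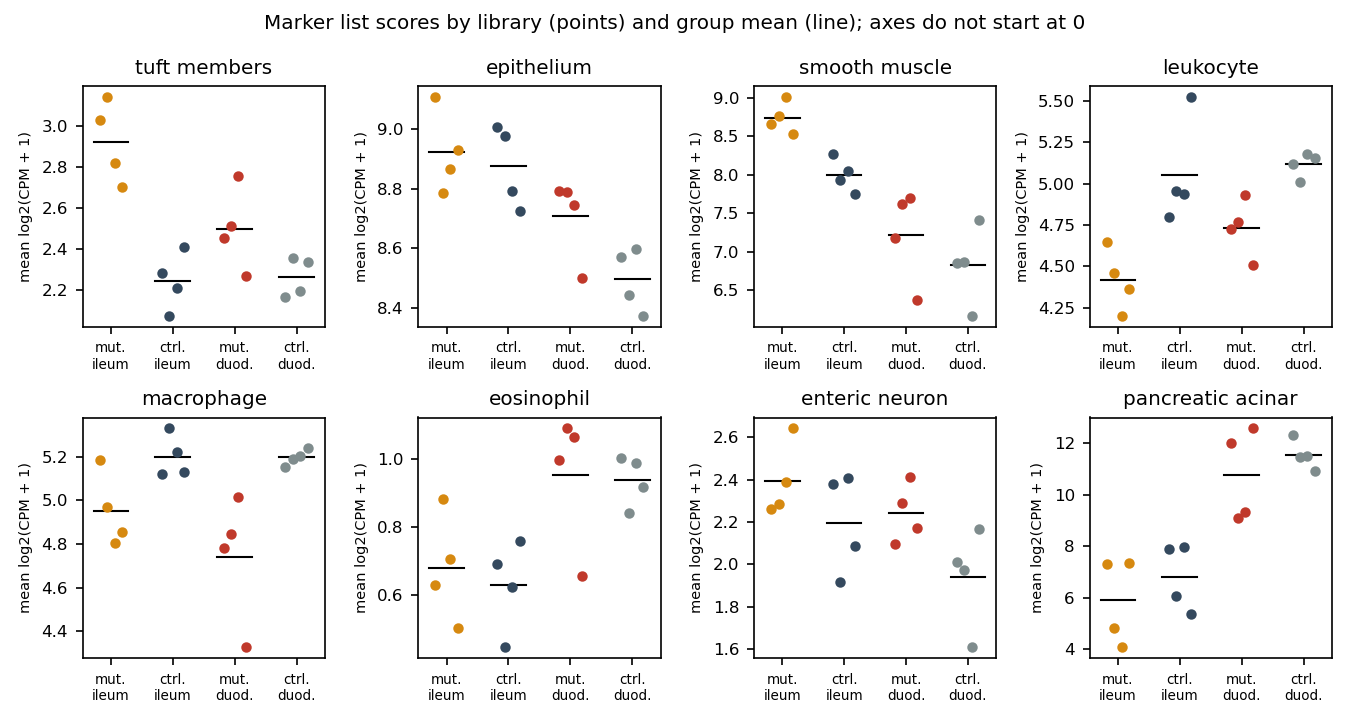
Scores of 8 marker lists, as mean log2(CPM + 1) over the list, in each library (points) with the group mean (line); the axes do not start at 0. In the ileum all mutants lie above all controls for smooth muscle and below them for leukocytes, and epithelial scores overlap.

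Trpm5 and Avil were called in all 8 fits that left out 1 ileal library, with adjusted p up to 0.030 for Trpm5 and 0.0238 for Avil. The other 4 calls were each lost in 6 or 7 of these 8 fits, while their log2 fold changes ran from 0.59 to 1.35. Dclk1 was called without NF152 or NFVCT190 and not in the other 6 fits, where adjusted p reached 0.127. Sh2d6 was likewise called without NF152 or NFVCT190 alone, and adjusted p reached 0.141. Pou2f3 was called without NF152 alone (up to 0.14), and Siglecf without NFVCT153 or NFVCT190 alone (up to 0.131). All 8 members kept log2 fold changes above 0 in each of these fits and in each other setting. Without a library, 2 to 5 members were called. Of the other tuft-associated genes, Sh2d7, Alox5, Strip2 and Cd24a were called in all 8 of these fits. Bmx was not called without NF17, NF32, NFVCT27 or NFVCT38 (adjusted p up to 0.104), and Krt18 was called without NFVCT153 or NFVCT190 alone. Rgs13 and Krt23 were called without NF152 alone, with adjusted p up to 0.151 and 0.154 in the other fits.

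**Figure D5:**
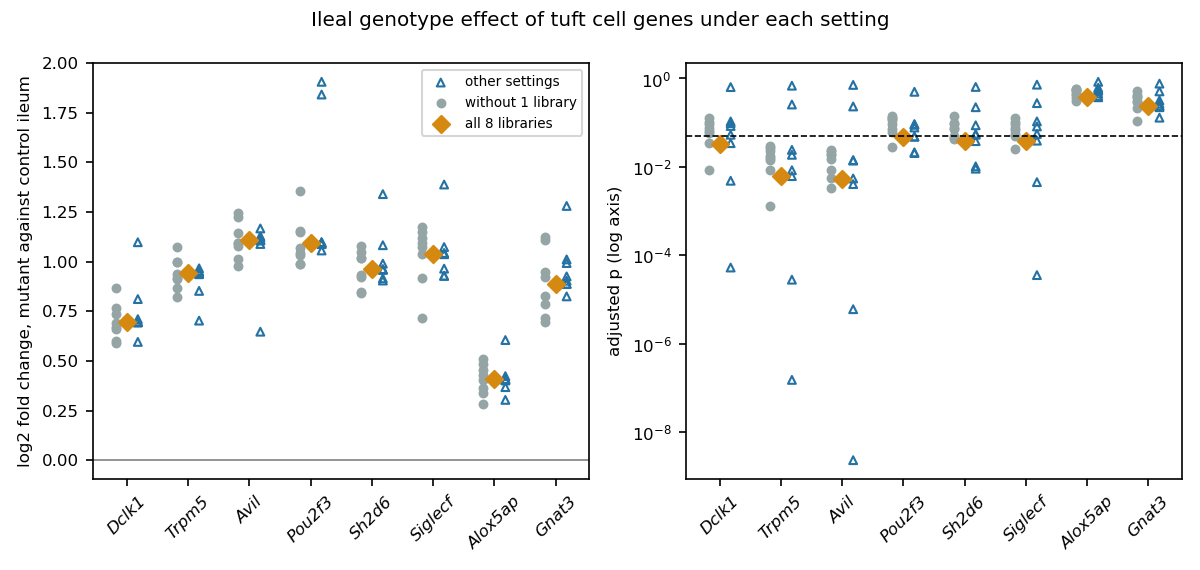
Log2 fold change (left) and adjusted p on a log axis (right) of mutant against control ileum for the 8 members tested, with all 8 libraries (diamonds), without 1 library (grey points) and under 8 other settings (triangles). All log2 fold changes are above 0. The dashed line marks 0.05, which Trpm5 and Avil pass without any 1 library.

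Reads of overlapping genes cannot be told apart where the counting ignored strand, and the strand setting is not given in the sources used here. In GENCODE M21, 13.3% of the exon length of Alox5ap overlaps an antisense gene, 4.86% of Avil overlaps Tsfm and 3.44% of Trpm5 overlaps Tssc4. For Dclk1 it is under 1%, and Gnat3, Il25, Pou2f3, Sh2d6 and Siglecf have no overlap.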

How the data were processed

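Total RNA of 16 libraries (4 mutant and 4 control mice, ileum and duodenum of each) was measured by stranded RNA sequencing after removal of ribosomal RNA, per the labels' protocols. The deposited values are raw read counts per Ensembl gene, which the authors left unnormalised, per the file headers. Per the submitters' processing notes the build was mm39, and HTSeq 0.6.1p1, STAR 2.5.3a, Bowtie2 2.2.8, cutadapt 1.10 and bcl2fastq 2.20.0.422 were used. Neither the annotation release nor the strand setting is given there. Exon lengths and overlaps came from GENCODE M21 (GRCm38) by gene identifier, and no coordinates from the files are printed. Symbols matched 52083 of 55359 identifiers, and 68 shared symbols were set aside.

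The tests used edgeR 4.0.16 under R 4.3.3, with TMM factors, filterByExpr at a minimum count of 10 and the robust quasi-likelihood F test. Adjusted p-values follow Benjamini-Hochberg, over all genes tested. Genotype was tested on 8 libraries of a tissue, tissue on 8 libraries of a genotype, and their interaction on 16. Intervals of a fold change are 2 SE to each side. Members below the filter and cell type scores were compared by exact two-sided permutation tests. Counting intervals and the floor of 3 counts cover counting error only, since PCR reads are not independent molecules. The scripts were tested on simulated counts.

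Named genes were the 9 members, up to 4 of smallest p and every called gene of each other list, and the 10 of highest likeness (mean CPM of at least 1). A gene of these is not reported here. Itprid1 and other genes outside that rule appear in figures only, and the genes Il13, Il9, Gata3, Ear1, Ear6 and Hpgds were named after their values were seen. Members and lists were chosen with earlier results of these data known. Beside the scores in the report, the scores of the type 2 circuit, eosinophil, mast cell, B cell, enteric neuron, enteroendocrine and pancreatic acinar lists were compared. Between genotypes, exact permutation p was 0.0286 for enteroendocrine genes in both tissues (all mutants lower) and for the type 2 circuit in the ileum (higher), and 0.0571 to 0.971 for the others, with no adjusted p under 0.0899.

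Alternatives were RLE scaling, no filter, DESeq2 1.42.0, limma-voom (limma 3.58.1), scaling to epithelial genes, the acinar score as a covariate, the animal as a block and leaving out 1 library. The smooth muscle and leukocyte covariates were added after seeing the data. Libraries of 1 mouse share an animal, so the animal pairs them across tissues. Their deviations from the group means correlated at 0.117 to 0.378 over genes in all 8 mice, where the highest correlation with another mouse's library was 0.253. That highest value was for NFVCT190, whose own libraries correlated less, at 0.162. In each of the other mice the own correlation was the higher, by little in NF29 (0.117 against 0.094).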

Additional observations from a re-analysis of the deposited data

Results flagged for a closer look

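Within groups of 4 libraries, 1 library stood apart from the other 3 by Dixon's criterion in 6 of 75 sets of a gene and a group, and chance flags about 1 in 20. In control ileum, NF152 was the high library for Pou2f3 at 1.87 CPM and for Krt23 at 11.6 CPM, and leaving it out kept both ileal log2 fold changes above 0. In mutant ileum, NFVCT38 was the high library for Rgs13 at 23.1 CPM. In mutant duodenum, NFVCT153, the deepest library, was the high one for Sh2d6 at 5.94 CPM and for Il25 at 0.0290 CPM, which is 1 count. In control duodenum, NF152 was the high one for Gnat3 at 0.162 CPM, which is 3 counts.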

How the results depend on the processing

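In the ileum no genotype difference of a member changed direction under any setting. The number of members called, 6, was the same with RLE scaling, no filter and DESeq2. It was 3 with limma-voom, 2 when scaled to epithelial genes, 2 with the acinar score, 0 with the smooth muscle score and 0 with the leukocyte score as a covariate, and 2 to 5 without 1 library. All genes called numbered 490, and 1096 with no filter, 875 with DESeq2, 15 with the smooth muscle score, 62 with the leukocyte score and 272 to 472 without 1 library. The cause of these differences was not tested.

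In the duodenum 0 members were called under every setting. Fold changes on the log2 scale turned when scaled to epithelial genes (Dclk1 -0.052, Strip2 -0.014), with the smooth muscle score (Siglecf -0.0089), with the leukocyte score (Rgs13 0.25) and without control NF152 (Rgs13, from -0.24 to 0.081 over the libraries left out). All genes called numbered 58, and 169 with no filter, 310 with DESeq2, 166 when scaled to epithelial genes, 18 with the leukocyte score and 27 to 61 without 1 library. For the interaction 0 members were called throughout. Scaled to epithelial genes Krt18 turned to 0.032, and without control duodenum NF152 Alox5ap turned (-0.021 to 0.37 over the libraries left out). All genes called numbered 7, and 38 with DESeq2, 15 with no filter, 18 when scaled to epithelial genes, 3 with the leukocyte score and 3 to 13 without 1 library. With the animal as a replicate block 16 were called. The block changed no member call here or between tissues.

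Between tissues in controls 0 members were called, 1 with no filter (Gnat3), 5 when scaled to epithelial genes and 0 to 2 without 1 library. There Dclk1 turned to -0.28, -0.41 and -0.011 and Pou2f3 to -0.26, -1.04 and -0.13 when scaled to epithelial genes, with the acinar score and with the smooth muscle score. Avil turned to 0.22 with the acinar score and Trpm5 to 0.27 with the smooth muscle score. Pou2f3 also turned without control ileum NF152 (-0.065) and without control duodenum NF32 (-0.044), with 0.59 the highest without 1 library. In mutants 3 members were called, 1 when scaled to epithelial genes, 1 with the acinar score, 1 with the smooth muscle score and 2 to 4 without 1 library. Pou2f3 lost its call without mutant ileum NFVCT27 or NFVCT38 or mutant duodenum NFVCT27. Scaled to epithelial genes Avil turned to -0.12 and Sh2d6 to -0.067. With the acinar score Trpm5 turned to -0.16, Avil to -0.35, Sh2d6 to -0.23 and Siglecf to -0.37. With the smooth muscle score Trpm5 turned to -0.088, Avil to -0.67, Sh2d6 to -0.31 and Siglecf to -0.55. Alox5ap turned to 0.070 with the leukocyte score and to 0.035 without mutant duodenum NFVCT153, with -0.32 the lowest without 1 library. Avil turned to -0.018 without mutant ileum NFVCT27 and to -0.038 without mutant duodenum NFVCT190, with 0.28 the highest. All genes called in controls numbered 5372, and 8111 when scaled to epithelial genes, 170 with the acinar score and 1193 with the smooth muscle score. In mutants they numbered 4833, and 851, 1034 and 2641 with the acinar, smooth muscle and leukocyte scores. The acinar and smooth muscle scores separate the tissues without overlap in each genotype, so fits with them cannot tell tissue from cell content.

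Scaling to epithelial genes moved the median log2 fold change of all genes to -0.22 in the duodenum, 0.24 in the interaction, -0.45 between tissues in controls and -0.22 in mutants. The share of calls that were higher moved to 8.43% in the duodenum (24.1% in the reported test), 9.35% in control tissues (47.8%) and 23.1% in mutant tissues (47.1%). Without mouse NFVCT153, 4 of the 10 genes most like the members remained. Il25 and duodenal Gnat3 are limited by depth, and 4 libraries per group limit all tests.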
